A study of Mus musculus with 8 samples.

Results

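The genes described here build the contractile lattice of striated muscle, move its calcium and feed it energy. They are the 38 rows of the deposited expression table whose gene name is on a list of sarcomere, calcium handling and muscle energy genes, out of 25378 rows in all. By role, 8 belong to the thin filament, 4 are myosin light chains, 9 are Z-disc or giant structural proteins, 10 handle calcium and 7 supply energy. All 38 were found. Of these, 34 had 1 FPKM or more in at least 4 libraries and were tested, and 4 (Tnnt1, Tnnc1, Myl2 and Myl3) were too low. FPKM, fragments per kilobase adjusted for library depth, is a level per gene length.

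RNA came from lesional back skin of 8 female wild-type C57BL/6 mice aged 6 weeks. In the propionic acid group (4 mice), MC903 was applied to the back at 5 nmol on each of 10 days, followed after 1 h by propionic acid at 1 mM. Propionic acid is a short-chain fatty acid. The control group (4 mice) had the same MC903 course, followed by a control whose content the labels leave undescribed. Lesions were collected on day 11. MC903, also called calcipotriol, is an analog of vitamin D and gives mouse skin an inflammation resembling atopic dermatitis. Every mouse received it, so no comparison with untreated skin is made. The labels call the samples biological replicates without saying whether animals were pooled. Each sample is taken as a mouse here, and p-values weigh the group difference against the spread between these samples.

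Mouse back skin rests on the panniculus carnosus, a thin sheet of striated muscle made mostly of fast fibres. In a striated fibre, calcium leaves the sarcoplasmic reticulum through the ryanodine receptor and binds troponin C. The troponin complex then shifts tropomyosin on the actin filament, and myosin can pull. A calcium pump ends the contraction, and creatine kinase, glycogen breakdown and glycolysis restore the ATP. Many of these proteins exist as a fast-fibre form and a slow-fibre form, the second often shared with the heart.

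No member passed the threshold. The smallest p among them were those of the energy genes Pfkm, Ckmt2 and Ckm, followed by the calcium gene Pvalb. Of the 12598 genes tested with limma, 0 (0%) had an adjusted p under 0.05, and 792 (6.29%) had an unadjusted p under 0.05. Among the 34 tested members, 0 passed, and 8 had an unadjusted p under 0.05. Of these, 7 had higher values in propionic acid skin (20.6% of the members, against 4.07% of all genes tested). They were the energy genes Pfkm, Ckm, Ckmt2, Pygm and Pgam2 and the calcium genes Pvalb and Atp2a1. Of the 34, 28 had a fold change above 0 (51.7% of all genes tested). Only Myoz2, of the Z-disc, had a lower value at that level (2.21% of all genes tested). No thin filament or myosin light chain gene was among the 8. A fit with voom weights on recovered whole reads gave 0 genes past the threshold, with 490 higher and 259 lower at an unadjusted p under 0.05. The median log2 fold change was 0.23 over the 34 members and 0.006 over all genes tested. The members' median was 0.14 when either propionic acid replicate 4 or control replicate 3 was left out. Leaving out propionic acid replicate 2 gave 0.41, and leaving out control replicate 2 gave 0.40. With muscle content as a covariate, described below, it was 0.088. In bulk tissue, more muscle cells and more RNA per muscle cell cannot be told apart.

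The promoters of 7 members are shown here, and those of other genes named below are not. Ckm, Atp2a1 and Pgam2 had higher values at an unadjusted p under 0.05, and Myoz2 a lower one. Tnnc2 and Tnnc1 are a fast and a slow form that lay far apart in level. Acta1 is the abundant actin to which other members are compared. The windows of Ckm, Atp2a1, Pgam2 and Acta1 were chosen after values were seen. Each window runs from 250 bases before to 50 bases after the transcript start, 5′ to 3′ on the gene's strand, taken from RefSeq on GRCm38.p6. Capitals mark matches to 4 motifs of muscle promoters, searched on both strands: CAGCTG, an E-box bound by MyoD and myogenin; the MEF2 motif; CATTCC, bound by TEAD factors; and the CArG box of SRF.
Ckm, chr7:19410844-19411143, strand +: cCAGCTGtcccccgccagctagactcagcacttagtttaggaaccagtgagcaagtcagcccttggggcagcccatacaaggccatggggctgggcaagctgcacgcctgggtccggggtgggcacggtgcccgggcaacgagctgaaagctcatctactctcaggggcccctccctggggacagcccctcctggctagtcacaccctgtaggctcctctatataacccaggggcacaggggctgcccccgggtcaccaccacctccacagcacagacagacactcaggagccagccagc
Atp2a1, chr7:126463024-126463323, strand -: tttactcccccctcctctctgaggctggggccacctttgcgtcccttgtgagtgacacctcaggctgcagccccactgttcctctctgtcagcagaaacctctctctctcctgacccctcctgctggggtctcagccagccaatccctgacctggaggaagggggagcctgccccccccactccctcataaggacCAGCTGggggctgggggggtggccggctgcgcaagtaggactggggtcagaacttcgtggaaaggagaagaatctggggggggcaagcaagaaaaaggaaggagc
Pgam2, chr11:5803747-5804046, strand -: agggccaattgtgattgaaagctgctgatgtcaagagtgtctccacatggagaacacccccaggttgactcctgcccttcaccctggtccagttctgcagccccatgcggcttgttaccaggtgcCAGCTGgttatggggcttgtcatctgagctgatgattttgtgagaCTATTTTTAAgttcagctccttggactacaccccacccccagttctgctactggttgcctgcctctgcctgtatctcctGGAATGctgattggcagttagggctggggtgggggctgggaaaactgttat
Myoz2, chr3:123034938-123035237, strand -: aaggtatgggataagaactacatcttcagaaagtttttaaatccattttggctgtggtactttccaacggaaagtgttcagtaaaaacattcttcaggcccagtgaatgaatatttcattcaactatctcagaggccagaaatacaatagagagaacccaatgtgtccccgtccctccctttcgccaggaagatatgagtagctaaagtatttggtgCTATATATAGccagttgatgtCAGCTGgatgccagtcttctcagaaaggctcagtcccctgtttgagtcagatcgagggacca
Tnnc2, chr2:164779685-164779984, strand -: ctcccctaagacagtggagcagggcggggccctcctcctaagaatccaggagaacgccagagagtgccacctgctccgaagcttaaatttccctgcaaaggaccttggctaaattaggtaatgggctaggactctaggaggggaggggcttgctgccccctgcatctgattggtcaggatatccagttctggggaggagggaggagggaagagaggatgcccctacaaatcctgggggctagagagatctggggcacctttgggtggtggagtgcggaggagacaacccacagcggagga
Tnnc1, chr14:31208062-31208361, strand +: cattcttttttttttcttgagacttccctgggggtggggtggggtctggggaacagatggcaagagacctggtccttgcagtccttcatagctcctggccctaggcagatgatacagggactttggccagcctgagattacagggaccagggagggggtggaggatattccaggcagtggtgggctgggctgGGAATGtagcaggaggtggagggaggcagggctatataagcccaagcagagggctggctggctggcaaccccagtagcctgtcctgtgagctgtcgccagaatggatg
Acta1, chr8:123894726-123895025, strand -: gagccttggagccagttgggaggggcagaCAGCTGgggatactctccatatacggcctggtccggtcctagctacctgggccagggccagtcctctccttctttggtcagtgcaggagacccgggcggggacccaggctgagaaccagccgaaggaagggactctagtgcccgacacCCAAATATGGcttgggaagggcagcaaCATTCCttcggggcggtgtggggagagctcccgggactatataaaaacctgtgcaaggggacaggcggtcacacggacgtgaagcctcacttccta

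CAGCTG stood 249 bases before the start in Ckm, 55 in Atp2a1, 125 in Pgam2, 12 in Myoz2 and 221 in Acta1. The other members higher at an unadjusted p under 0.05 in limma, whose windows are not shown, were mixed. Ckmt2 and Pygm held CAGCTG, and no window of Pfkm or Pvalb did. The MEF2 motif stood 80 bases before the start in Pgam2 and 33 in Myoz2. In Acta1 the CArG box stood 73 and CATTCC 46 bases before the start. CATTCC, read on the other strand, was also found 58 bases before the start in Tnnc1 and 1 base before it in Pgam2. The Tnnc2 window held none of the 4, which says only that these letters are not in it. The RefSeq table held 37 windows for 28 of the 38 members, and some windows of 1 gene overlap. CAGCTG was in 20 of the 37 (54.1%) and in 16.3% of all 32851 windows of this length. The MEF2 motif was in 5 (13.5%) and 3.19% of all, CATTCC in 8 (21.6%) and 14.7% of all, and the CArG box in 4 (10.8%) and 1.63% of all. The motifs do not overlap each other in the windows shown, and matches are a description of the letters, not of binding.

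The libraries were of nearly equal depth. Whole reads recovered from the steps in the FPKM values gave 39180665 to 40194111 reads in propionic acid skin and 39034193 to 40084605 in control skin. The 38 members held 0.961% to 1.87% of the reads in propionic acid skin and 0.924% to 1.34% in control skin. Their summed level was 10554, 5442, 6096 and 11586 FPKM in propionic acid replicates 1 to 4, and 6199, 8498, 5255 and 6340 FPKM in control replicates 1 to 4. Propionic acid replicates 1 and 4 stood above every control mouse and replicates 2 and 3 stood inside the control range, so the sums overlapped.

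The source of these transcripts was checked against marker lists. Of 12 muscle genes that fibres of every type use and that are not members, 11 leaned higher in propionic acid skin and 1 lower, and 0 passed. Their summed level was 122 to 298 FPKM in propionic acid skin and 176 to 207 FPKM in control skin. The 7 heart markers in the table summed to 7.99 to 15.1 FPKM in propionic acid skin and 8.14 to 22.3 FPKM in control skin. Myl7, atrial light chain 2, held 1.82 to 9.11 FPKM in propionic acid skin and 1.73 to 9.30 FPKM in control skin, and Nppb, a natriuretic peptide, 1.33 to 3.96 FPKM in propionic acid skin and 2.52 to 10.4 FPKM in control skin. Tnnt2, cardiac troponin T, averaged 2.85 ± 0.787 FPKM in propionic acid skin and 1.92 ± 0.508 FPKM in control skin (SD, n = 4 each), and these 3 made up most of the sum. The other 4 had lower means. Of these, Myh6, cardiac alpha-myosin, was listed at 0 in all 4 propionic acid mice and at no more than 0.0196 FPKM in control mice, and Tnni3, cardiac troponin I, was at most 0.686 FPKM in propionic acid skin and 1.35 FPKM in control skin. Smooth muscle genes summed to 179.6 to 229 FPKM in propionic acid skin and 156 to 294 FPKM in control skin. Of the 8 tested, 1 leaned higher and 7 lower in propionic acid skin, and 0 had an unadjusted p under 0.05 in limma. Myh4, the fastest myosin heavy chain, had 223 ± 110.5 FPKM in propionic acid skin and 24.7 ± 18.1 FPKM in control skin (SD, n = 4 each). Myh7, the slow myosin, was at most 0.0262 FPKM in propionic acid skin and 0.140 FPKM in control skin. Of 10 listed genes of muscle formation in the table, 1 was tested, the fibre regulator Myf6, with 14.7, 6.22, 6.46 and 8.97 FPKM in propionic acid skin and 4.27, 2.50, 4.98 and 4.49 FPKM in control skin and no overlap (log2 fold change 0.95, limma adjusted p = 0.488). Striated muscle transcripts were thus present in every library, with almost no slow myosin.

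The thin filament holds the most abundant member, and none of its 6 tested genes had an unadjusted p under 0.05. Acta1, skeletal alpha-actin and the backbone of the filament, had 2095, 927, 1147 and 1445 FPKM in propionic acid replicates 1 to 4 and 1879, 1666, 1219 and 1263 FPKM in control replicates 1 to 4. The groups overlapped, with propionic acid skin holding both the highest and the lowest mouse. Its log2 fold change was -0.14 with a 95% confidence interval of -0.73 to 0.44 (limma adjusted p = 0.935). Tpm2, the tropomyosin that blocks the myosin sites at rest, averaged 306 ± 123 FPKM in propionic acid skin and 272 ± 38.2 FPKM in control skin (SD, n = 4 each), and its groups overlapped.

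The fast troponins were high and low in much the same mice. Tnnt3, fast troponin T, which ties the complex to tropomyosin, had 1623, 800.1, 765 and 1940.3 FPKM in propionic acid skin and 727, 1467, 773 and 1213 FPKM in control skin. Tnni2, the fast inhibitory subunit, had 1287, 603, 593 and 1554 FPKM in propionic acid skin and 498, 1111, 537 and 878 FPKM in control skin. Tnnc2, the fast calcium sensor, had 806, 355, 441 and 968 FPKM in propionic acid skin and 353, 591, 312 and 353 FPKM in control skin. All 3 were high in propionic acid replicates 1 and 4 and in control replicate 2, so the groups overlapped. The fold changes (log2) were 0.24 (SE 0.36), 0.36 (SE 0.38) and 0.60 (SE 0.34), with limma adjusted p values of 0.922, 0.893 and 0.836. In GENCODE vM21, 592 bases (74.0%) of the annotated exon bases of Tnnc2 are also exon of Ube2c on the opposite strand. Without the strand setting their reads cannot be told apart, and Ube2c had 31.6 FPKM on average in propionic acid skin and 32.8 FPKM in control skin.

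The slow troponins were low, and Tnnt1 and Tnnc1 were too low to be tested. Tnni1, the slow inhibitory subunit, had 1.99, 7.30, 2.01 and 3.94 FPKM in propionic acid skin and 1.35, 1.00, 2.50 and 2.95 FPKM in control skin. Propionic acid replicate 2 was highest, although it was not high for the fast troponins, and the groups overlapped (log2 fold change 0.63, limma adjusted p = 0.836). Without that mouse the log2 fold change of Tnni1 was 0.32. Tnnt1, slow troponin T, had 1.17, 0.410, 0.981 and 1.68 FPKM in propionic acid skin and 0.718, 0.718, 1.97 and 0.514 FPKM in control skin, on 24 to 101 recovered reads in propionic acid skin and 30 to 117 in control skin. Tnnc1, the slow and cardiac calcium sensor, had 0.0693, 0.106, 0.175 and 0.0344 FPKM in propionic acid skin and 0.242, 0.173, 0.348 and 0.106 FPKM in control skin. These values rest on 1 to 5 reads per library in propionic acid skin and 3 to 10 in control skin, and a difference between groups was not detectable at this depth.

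The myosin light chains divided in the same way into abundant fast and scarce slow forms. Mylpf, the fast regulatory light chain that is phosphorylated during activity, had 749, 346, 429 and 664 FPKM in propionic acid skin and 512, 742, 427 and 292 FPKM in control skin. Myl1, the fast essential light chain, had 144, 67.6, 79.0 and 119 FPKM in propionic acid skin and 90.8, 91.0, 66.6 and 49.3 FPKM in control skin. The groups overlapped for both, with log2 fold changes of 0.16 (SE 0.32, limma adjusted p = 0.943) and 0.43 (SE 0.27, limma adjusted p = 0.848). Myl2, the slow and ventricular regulatory chain, had 0.377, 0.0592, 0.547 and 0.250 FPKM in propionic acid skin and 0, 0.00964, 0.301 and 0.00990 FPKM in control skin. Myl3, the slow and ventricular essential chain, had 0.165, 0.0280, 0.0832 and 0 FPKM in propionic acid skin and 0.493, 0, 0 and 0.0281 FPKM in control skin. Both were under 1 FPKM in every mouse and were not tested. The largest read number of either gene in a library was 56.

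Fast and slow forms were also compared within each mouse. Where the slow form is near 0, as Tnnc1, Myl2 and Myl3 are, the ratio of values with 1 added largely follows the level of the fast form. On the log2(FPKM + 1) scale, fast exceeded slow in every mouse for all 7 pairs examined. The pairs of troponin T, I and C and of the light chains lay between 5.61 and 9.87 log2 units. The ratio of Myoz1 to Myoz2, described with the Z-disc below, had the largest difference between groups among the 7. The other 6 pairs had differences of -0.26 to 0.75, and their groups overlapped. These sizes depend on the constant added before the logarithm. With 0.1 in place of 1, the difference was 1.29 in place of 0.75 for Tnnc2 over Tnnc1, -0.48 in place of -0.26 for Tnni2 over Tnni1 and 0.098 in place of 0.16 for Tnnt3 over Tnnt1. It was -1.13 in place of -0.11 for Mylpf over Myl2, -0.037 in place of 0.002 for Casq1 over Casq2 and 0.51 in place of 0.49 for Myl1 over Myl3. The Myoz1 to Myoz2 difference was 1.66 in place of 1.57.

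**Figure D1:**
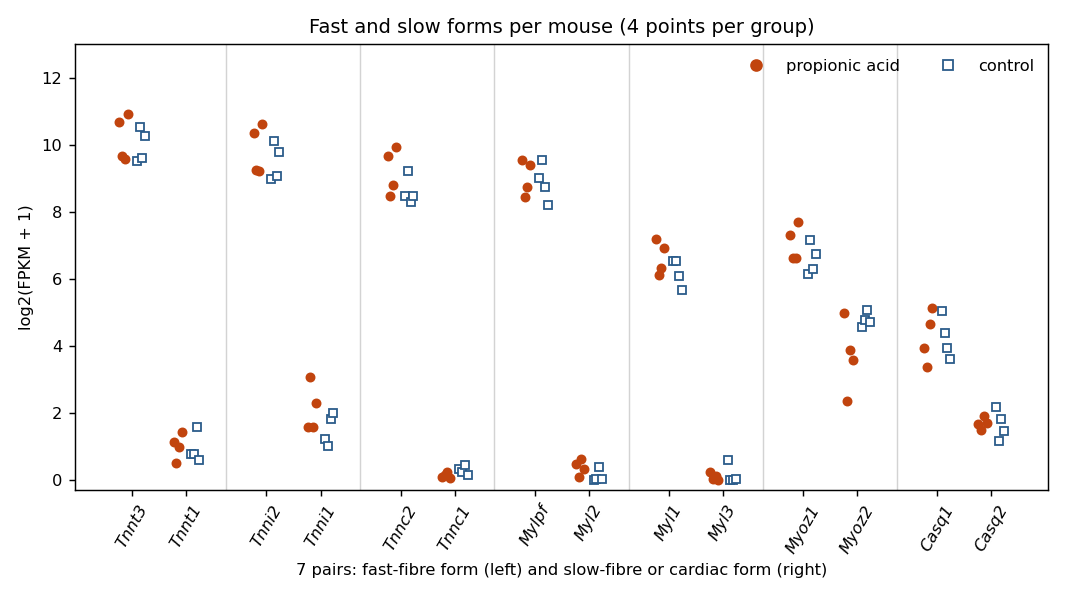
Level of the fast and the slow or cardiac form of 7 protein pairs, as log2(FPKM + 1) on the vertical axis, with 1 point per mouse (filled circles, 4 propionic acid mice; open squares, 4 control mice). In each of the 7 pairs the fast form is above the slow one in all 8 mice, and the points of the groups interleave for most genes.

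At the Z-disc, where actin filaments of neighbouring sarcomeres are joined, 5 of the 9 members had a higher mean log2 value and 4 a lower one. Myoz2, calsarcin-1, binds calcineurin at the Z-disc of slow and cardiac fibres. It had 30.3, 4.15, 13.5 and 10.9 FPKM in propionic acid skin and 22.8, 26.3, 32.8 and 24.9 FPKM in control skin. Propionic acid replicates 2 to 4 lay below every control mouse and replicate 1 lay inside the control range. The log2 fold change was -1.09 (SE 0.44, 95% confidence interval -2.08 to -0.091), with an unadjusted p of 0.0356 and an adjusted p of 0.77 in limma. With each mouse left out in turn it stayed between -1.51 and -0.65, and the unadjusted p between 0.00139 and 0.0818. The fold change nearest 0 was that without propionic acid replicate 2. The unadjusted p exceeded 0.05 when any 1 of replicates 2 to 4 of either group was left out.

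Myoz1, calsarcin-2, is the fast-fibre counterpart of Myoz2. It had 158, 96.9, 96.4 and 206 FPKM in propionic acid skin and 69.6, 140.1, 76.9 and 105 FPKM in control skin, and the groups overlapped (log2 fold change 0.48, limma adjusted p = 0.848). The log2 ratio of Myoz1 to Myoz2 was 2.35, 4.25, 2.74 and 4.12 in propionic acid replicates 1 to 4, against 1.57, 2.37, 1.20 and 2.03 in control replicates 1 to 4. Its mean was 3.37 ± 0.96 in propionic acid skin and 1.79 ± 0.51 in control skin (SD, n = 4 each). Propionic acid replicate 1 fell just under control replicate 2, so the groups overlapped by that 1 mouse.

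The remaining Z-disc and giant proteins overlapped between groups. Des, desmin, the intermediate filament that links Z-discs and is also made by smooth muscle, had 330.1, 136, 150.2 and 259 FPKM in propionic acid skin and 195, 271, 226 and 277 FPKM in control skin (log2 fold change -0.23, limma adjusted p = 0.903). Tcap, telethonin, which caps the end of titin, averaged 217 ± 118 FPKM in propionic acid skin and 196 ± 67.2 FPKM in control skin (SD, n = 4 each). The giant proteins had low levels per length. Ttn, titin, the spring of the sarcomere, averaged 1.63 ± 0.518 FPKM in propionic acid skin and 2.14 ± 0.897 FPKM in control skin. Neb, nebulin, the ruler of the thin filament, averaged 9.13 ± 2.15 FPKM in propionic acid skin and 10.9 ± 4.24 FPKM in control skin. Ldb3, a scaffold of the Z-disc, had 3 of 4 propionic acid mice above the highest control mouse, with 18.0 ± 4.59 FPKM in propionic acid skin and 13.1 ± 4.46 FPKM in control skin (log2 fold change 0.44, limma adjusted p = 0.836). Myot, myotilin, which bundles actin, had a log2 fold change of 0.15 and Cmya5, myospryn, which binds desmin, one of 0.068.

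Among the 10 calcium genes, 2 had higher values at an unadjusted p under 0.05 and 8 did not. Pvalb, parvalbumin, is the soluble calcium buffer that speeds relaxation in the fastest fibres. It had 187, 154, 168 and 427 FPKM in propionic acid skin and 65.1, 163, 56.8 and 49.3 FPKM in control skin. Propionic acid replicate 4 was far above the other mice, and propionic acid replicate 2 lay just under control replicate 2, so the groups overlapped. The log2 fold change was 1.52 (SE 0.42, 95% confidence interval 0.57 to 2.46, limma adjusted p = 0.488), and it ranged from 1.19 to 1.90 with 1 mouse left out.

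Atp2a1, SERCA1, the fast-fibre pump that returns calcium to the reticulum, had 659, 540.0, 550.0 and 1026 FPKM in propionic acid skin and 360.4, 529, 389 and 533 FPKM in control skin. All 4 propionic acid mice lay above all 4 control mice, though the lowest and the highest of the groups were close. The log2 fold change was 0.58 (SE 0.23, unadjusted p = 0.0317 and adjusted p = 0.77 in limma). The fold change was 0.38 without propionic acid replicate 4, and the unadjusted p exceeded 0.05, with a highest value of 0.0818, without propionic acid replicate 1 or 4 or control replicate 1 or 3. Of the annotated exon bases of Atp2a1, 21.9% are also exon of Rabep2 on the opposite strand, which averaged 7.06 FPKM in propionic acid skin and 7.91 FPKM in control skin. Sln, sarcolipin, a small membrane peptide that inhibits this pump, had 20.5 ± 13.3 FPKM in propionic acid skin and 17.8 ± 9.24 FPKM in control skin (SD, n = 4 each), with overlapping groups.

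The genes of calcium storage and release overlapped between groups. Casq1, calsequestrin of fast fibres, stores calcium in the reticulum, and had 14.4, 9.35, 24.2 and 33.8 FPKM in propionic acid skin and 31.8, 19.9, 14.2 and 11.1 FPKM in control skin. Casq2, the cardiac and slow form, had 2.16, 1.79, 2.73 and 2.25 FPKM in propionic acid skin and 3.49, 1.23, 2.52 and 1.76 FPKM in control skin. The fold changes (log2) were 0.035 and 0.033, with 95% confidence intervals of -0.87 to 0.94 and -0.43 to 0.50, the wider one being that of Casq1. Ryr1, the release channel, averaged 9.06 ± 1.24 FPKM in propionic acid skin and 8.43 ± 2.31 FPKM in control skin, and Cacna1s, the voltage sensor that opens it, 7.78 ± 1.45 FPKM in propionic acid skin and 7.49 ± 1.60 FPKM in control skin (SD, n = 4 each). The intervals of their log2 fold changes were -0.29 to 0.53 and -0.33 to 0.43. Cacng1, a further subunit of the voltage sensor, had a log2 fold change of -0.28, Jph1, which joins the reticulum to the surface membrane, 0.22, and Trdn, triadin, which anchors calsequestrin to the release channel, 0.45 (limma adjusted p 0.864 to 0.902). Cacng1 was at -0.66 without propionic acid replicate 1 (limma adjusted p = 0.478), -0.14 without replicate 2 and -0.08 without replicate 3 of that group. Trdn was at 0.082 with control replicate 3 left out and 0.28 with propionic acid replicate 4 left out, and Jph1 at 0.13 without propionic acid replicate 1.

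All 7 energy genes had a higher mean log2 value in propionic acid skin, and 5 of them had an unadjusted p under 0.05. Their median log2 fold change was 0.76. In 3 of the 7 the groups did not overlap, as in 4 of the 34 tested members in all (11.8%, with 2.06% of all genes tested not overlapping with higher values). The groups of 0 members were separate with lower values (1.1% of all genes tested, and 3.16% for either direction). The summed level of the 7 was 1559, 1007, 1074 and 1980.3 FPKM in propionic acid replicates 1 to 4, against 834, 905, 574 and 651 FPKM in control replicates 1 to 4. Every propionic acid mouse was above every control mouse in this sum, which Ckm dominates.

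Pfkm, the muscle phosphofructokinase that commits sugar to glycolysis, had the smallest p of the members. It had 69.6, 57.7, 60.3 and 76.7 FPKM in propionic acid skin and 36.8, 41.7, 26.6 and 42.8 FPKM in control skin. The groups did not overlap, and the lowest propionic acid mouse stood well above the highest control mouse. The mean was 66.1 ± 8.72 FPKM in propionic acid skin and 37.0 ± 7.36 FPKM in control skin (SD, n = 4 each). The log2 fold change was 0.83 (SE 0.16, 95% confidence interval 0.47 to 1.20), with an unadjusted p of 0.000553, rank 26 of the genes tested, and an adjusted p of 0.263 in limma. With 1 mouse left out the fold change stayed between 0.69 and 0.91. Of the annotated exon bases of Pfkm, 10.2% are also exon of Gm26513 on the same strand. Gm26513 has no row in the deposited expression table.

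Creatine kinase moves phosphate between creatine and ADP. Ckm, the cytosolic muscle form, had 1079, 709.5, 669.8 and 1443 FPKM in propionic acid skin and 535, 609.6, 371 and 390.5 FPKM in control skin. Ckmt2, the form of muscle mitochondria, had 21.7, 14.9, 27.3 and 27.0 FPKM in propionic acid skin and 15.1, 11.4, 6.54 and 12.1 FPKM in control skin. For Ckm the groups did not overlap, and for Ckmt2 propionic acid replicate 2 lay just under control replicate 1. The fold changes (log2) were 0.99 (SE 0.27) and 0.96 (SE 0.26), with limma adjusted p values of 0.488 and 0.476. Among the annotated exon bases of Ckm, 15.5% are also exon of the opposite-strand gene A930016O22Rik, which averaged 0.773 FPKM in propionic acid skin and 0.329 FPKM in control skin.

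Pygm, the muscle phosphorylase that splits glucose units from glycogen, had 149.9, 117, 129 and 248 FPKM in propionic acid skin and 77.8, 108, 69.0 and 115 FPKM in control skin. The groups did not overlap, by a narrow margin between propionic acid replicate 2 and control replicate 4 (log2 fold change 0.76, SE 0.25, limma adjusted p = 0.674). Pgam2, the muscle phosphoglycerate mutase of lower glycolysis, had 105, 52.1, 63.5 and 79.7 FPKM in propionic acid skin and 68.4, 51.2, 36.2 and 44.2 FPKM in control skin. Its groups overlapped (log2 fold change 0.57, SE 0.24, limma adjusted p = 0.786), and the unadjusted p exceeded 0.05, reaching 0.122, without propionic acid replicate 1 or 4 or any 1 of control replicates 2 to 4. Eno3, the muscle enolase, averaged 49.3 ± 12.1 FPKM in propionic acid skin and 35.7 ± 8.56 FPKM in control skin (unadjusted p = 0.0601 in limma). Mb, myoglobin, the oxygen store of oxidative fibres, averaged 55.9 ± 29.1 FPKM in propionic acid skin and 38.4 ± 17.7 FPKM in control skin (unadjusted p = 0.347 in limma), and the groups of both genes overlapped. The log2 fold change of Mb was 0.47, with 0.14 when control replicate 4 was left out and 0.89 when propionic acid replicate 2 was. Of the annotated exon bases of Mb, 27.6% are also exon of Gm49540 on the opposite strand, which has no row in the expression table.

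Markers of fat, epidermis and dermis were examined beside these values. Of 9 fat cell markers, 8 leaned higher in propionic acid skin. Of these, 5 had an unadjusted p under 0.05 in limma (55.6% of the 9, against 4.07% of all genes tested). The summed level of the 9 was 1659 to 3375 FPKM in propionic acid skin and 1546 to 2508 FPKM in control skin. The smallest limma adjusted p was 0.237. Cidec and Pck1 were higher without overlap between groups (22.2% of the 9, against 2.06% of all genes tested). Lep had 5.66, 6.09, 9.73 and 1.90 FPKM in propionic acid replicates 1 to 4. It was near 0 in most control mice, at 2.43, 0.00765, 0.138 and 0.0471 FPKM in control replicates 1 to 4. Keratinocyte markers (4 of 7 lower) summed to 5978 to 8867 FPKM in propionic acid skin and 6084 to 8421 FPKM in control skin. Krt5, 1 of the 7, was lower without overlap between groups (1.1% of all genes tested, limma adjusted p = 0.802 for Krt5). It had 894 to 1045 FPKM in propionic acid skin and 1056 to 1506 FPKM in control skin. Fibroblast markers (4 of 7 lower) summed to 2108 to 3619 FPKM in propionic acid skin and 1810.3 to 4000.4 FPKM in control skin. The part of these tissue parts in the energy gene values was not tested.

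**Figure D2:**
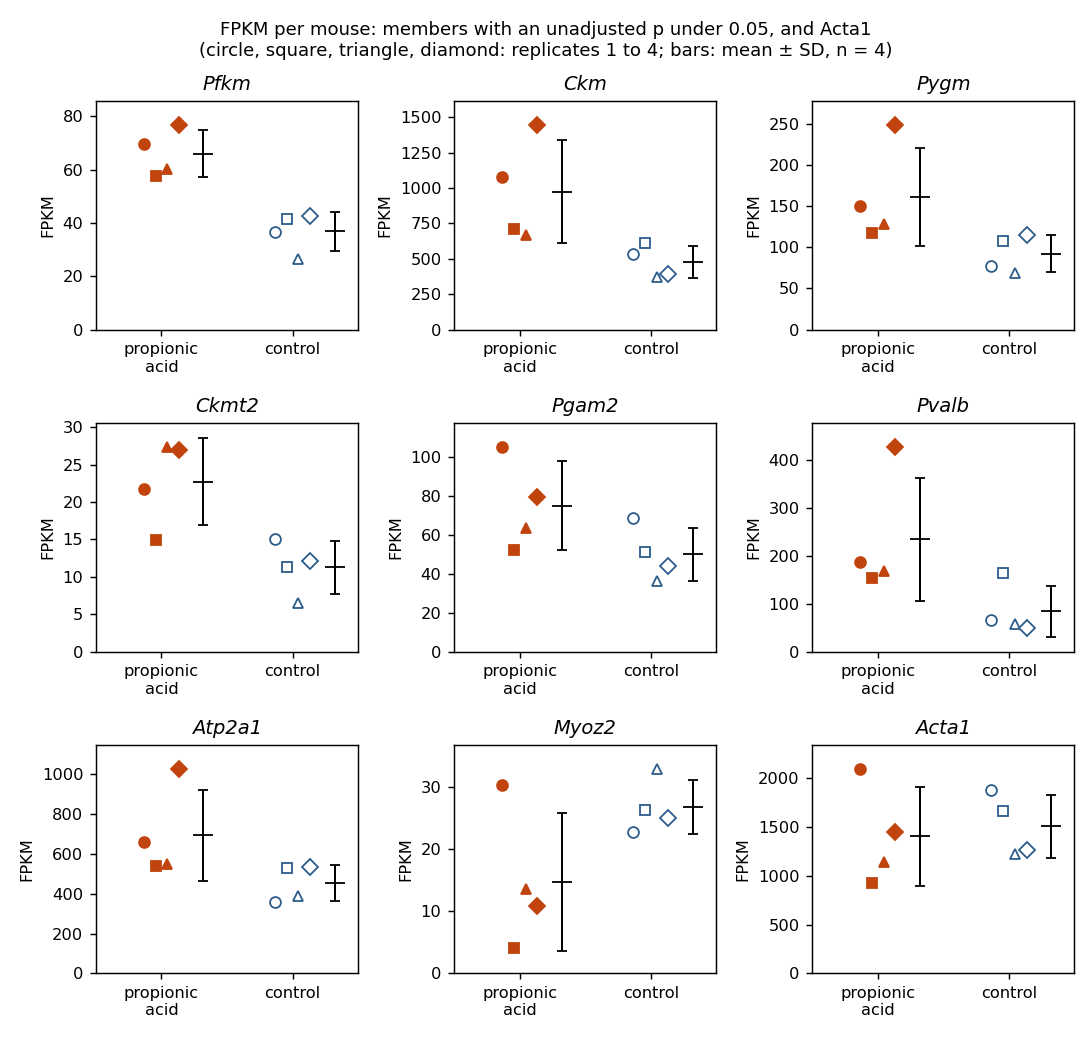
FPKM in each mouse for the 8 members with an unadjusted p under 0.05 and for Acta1, with propionic acid on the left (filled) and control on the right (open), marker shapes for replicates 1 to 4, and bars for the mean ± SD (n = 4). All 4 propionic acid mice lie above all 4 control mice for Pfkm, Ckm, Pygm and Atp2a1, and the groups overlap in the other 5 panels.

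In mm10, and by GENCODE vM21 on the same assembly, these 8 members are protein-coding genes. The annotation behind the FPKM values was not given, so the span that each value covers is not known. The spans below are those of GENCODE. Pfkm is at chr15:98092589-98132451, Ckm at chr7:19404776-19422841, Ckmt2 at chr13:91853387-91876885 and Pygm at chr19:6384399-6398459. Pgam2 is at chr11:5801640-5803733, Pvalb at chr15:78191114-78206400, Atp2a1 at chr7:126445858-126463108 and Myoz2 at chr3:123006206-123035015.

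**Figure D3:**
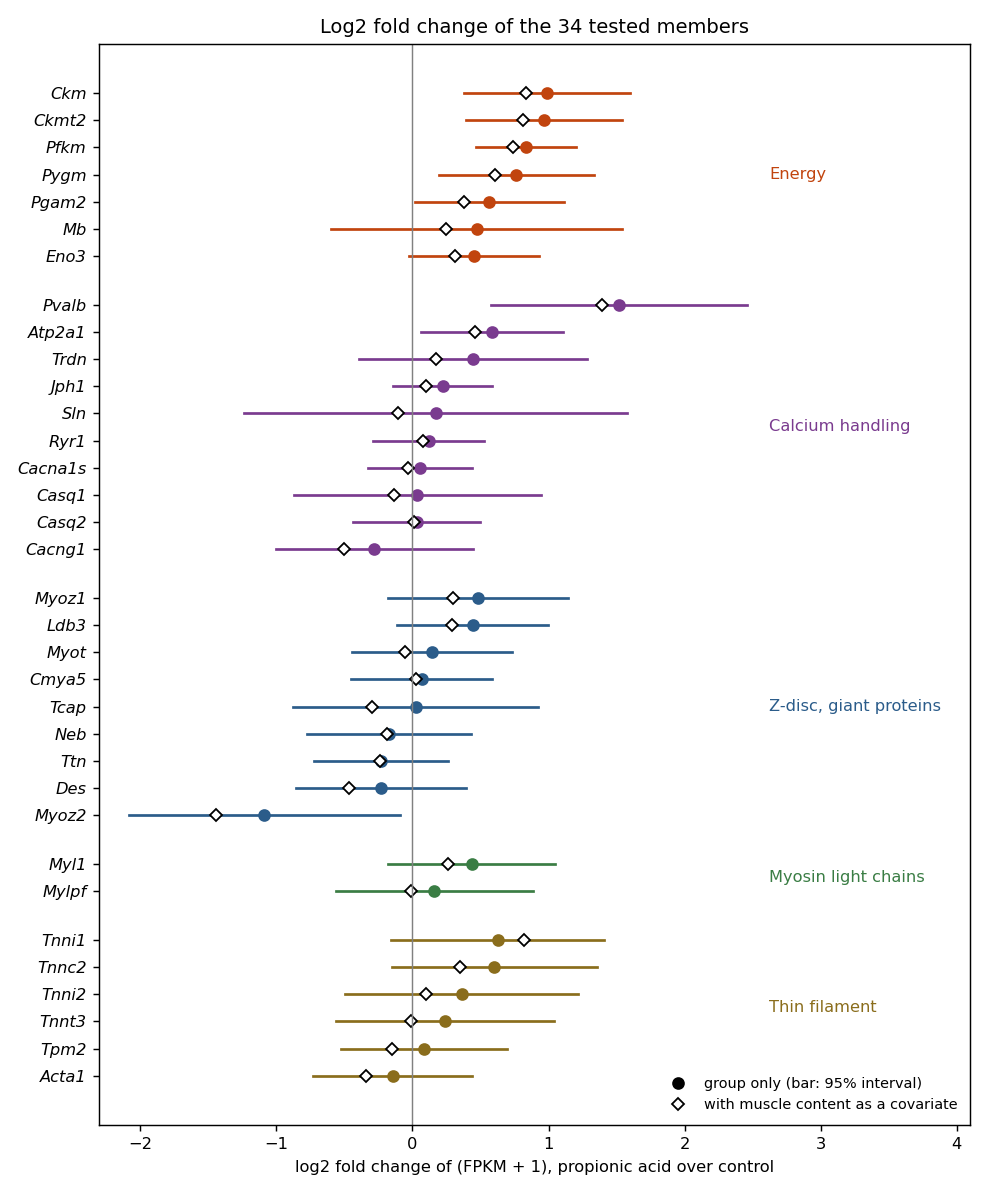
Log2 fold change of (FPKM + 1), propionic acid over control, for the 34 tested members by role. Filled circles with bars give the fit with group alone and its 95% confidence interval, and open diamonds the fit with muscle content as a covariate. The 7 energy genes are all to the right of 0, while the Z-disc and thin filament genes lie on both sides.

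Muscle content differed among the mice, so the fold changes were also fitted with the mean log2 level of the 12 non-member muscle genes as a covariate. All 7 energy genes kept a positive fold change, with 0.83 for Ckm, 0.81 for Ckmt2, 0.74 for Pfkm, 0.60 for Pygm, 0.38 for Pgam2, 0.31 for Eno3 and 0.25 for Mb, as did Pvalb (1.39) and Atp2a1 (0.46). The unadjusted p in limma was then 0.0732 for Pgam2 and 0.0681 for Atp2a1, no longer under 0.05, and 0.0362 for Tnni1, now under it. Myoz2 was at -1.44 and Des at -0.47. Of the 34 members, 20 were then positive, against 28 without the covariate, and 8 turned sign, among them Tnnt3 and Mylpf. With the covariate 0 genes passed the threshold in limma, 415 had higher and 245 lower values at an unadjusted p under 0.05, and the smallest limma adjusted p of a member was 0.346, for Pfkm.

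As a second view, each member was set against Acta1 in the same mouse, a choice made after the values were seen. The level relative to Acta1 did not overlap between groups for 6 of 33 members, all higher in propionic acid skin (18.2%, with 0.77% of all genes tested). No member was separate with lower values (0.103% of all genes tested). The 6 were Ckm, Ckmt2, Eno3, Pgam2, Tnnc2 and Myl1. The spread of Acta1 between mice enters every value on this scale. Without Acta1 subtracted, the shares of all genes tested were 2.06% higher and 1.1% lower, so the share of members is not a measure of enrichment. Ckm was at -0.96, -0.39, -0.78 and -0.002 log2 units relative to Acta1 in propionic acid replicates 1 to 4, against -1.81, -1.45, -1.71 and -1.69 in control replicates 1 to 4. In propionic acid replicate 4 Ckm thus equalled Acta1, while the control mice lay close together. Pgam2 was at -4.30, -4.13, -4.15 and -4.16 in propionic acid skin and -4.76, -5.00, -5.04 and -4.81 in control skin, tight within each group. Pfkm overlapped by 1 mouse on this scale, at -4.89, -3.98, -4.23 and -4.22 in propionic acid skin and -5.64, -5.29, -5.46 and -4.85 in control skin. No calcium gene and no Z-disc gene had separate groups.

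**Figure D4:**
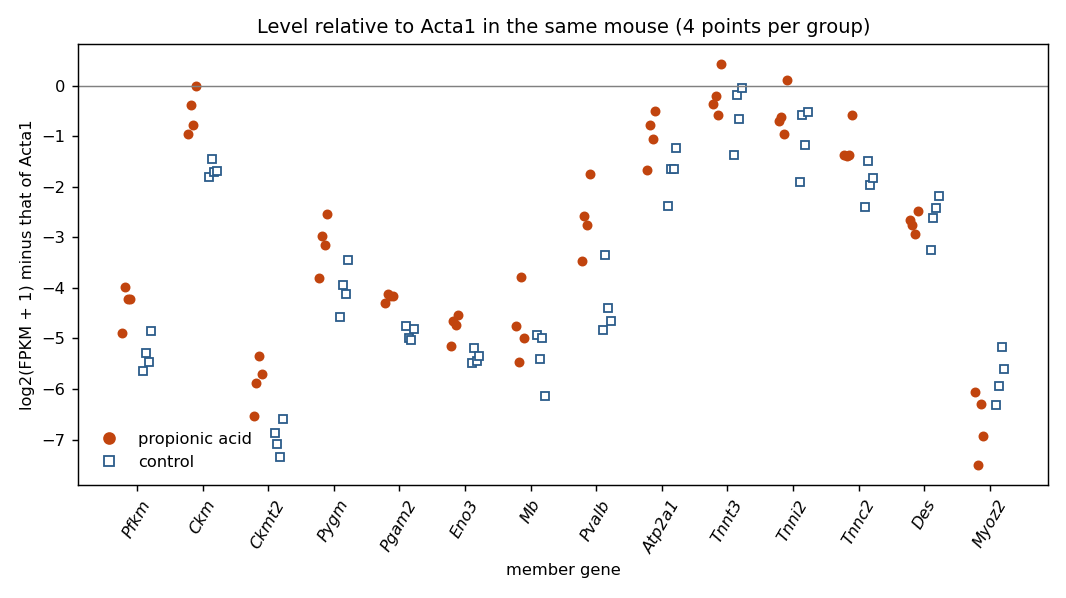
Level of 14 members relative to Acta1 in the same mouse, as the difference of log2(FPKM + 1) on the vertical axis, with 1 point per mouse (filled circles, propionic acid; open squares, control). The groups do not overlap for Ckm, Ckmt2, Pgam2, Eno3 and Tnnc2 among those shown, and Myoz2 and Des are those drawn with a lower group mean in propionic acid skin.

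The members did not move as 1 block across mice. For each mouse, the median deviation of a role group from its mean over the 8 mice was taken on the log2 scale. For the energy genes it was 0.50, -0.06, 0.12 and 0.64 in propionic acid replicates 1 to 4 and -0.041, -0.13, -0.76 and -0.42 in control replicates 1 to 4. For the thin filament it was 0.60, -0.44, -0.31 and 0.66 in propionic acid skin and -0.51, 0.27, -0.35 and 0.014 in control skin. Propionic acid replicates 1 and 4 were high for both groups of genes. Propionic acid replicates 2 and 3 were low for the thin filament and near the overall mean for the energy genes, and control replicate 2 was high for the thin filament and slightly low for energy. The ranges of the groups of mice overlapped in all 5 roles.

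**Figure D5:**
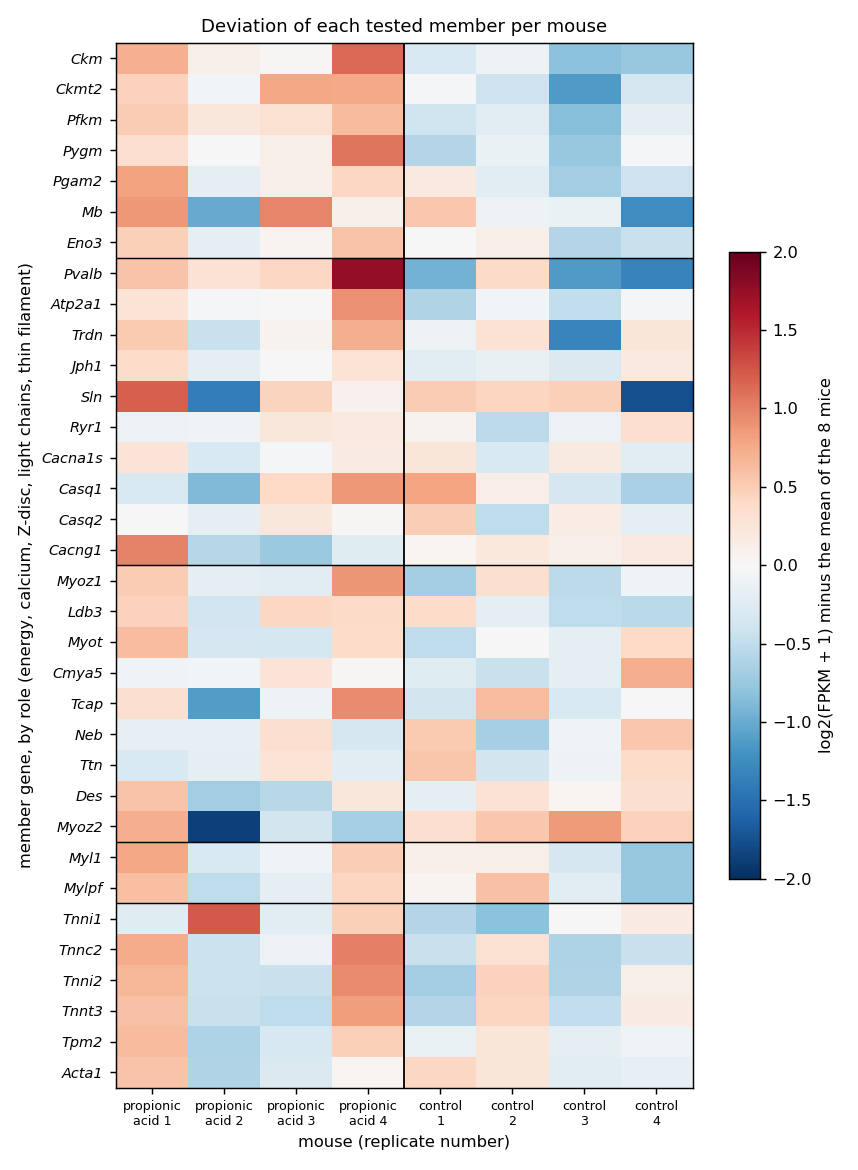
Heat map of the 34 tested members (rows, by role) in the 8 mice (columns, propionic acid left of the line, control right), coloured by log2(FPKM + 1) minus the mean of the 8 mice, red above and blue below. Energy genes are red in propionic acid replicates 1 and 4 and blue in control replicates 3 and 4, and fast troponins are red in propionic acid replicates 1 and 4 and control replicate 2.

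Energy genes outside the members were also mostly higher in propionic acid skin, 17 of 25 tested, as were 12 of 17 calcium genes outside them (51.7% of all genes tested had a fold change above 0). Of the 25 further energy genes, 8 had an unadjusted p under 0.05, all higher (4.07% of all genes tested), and 0 passed, with a median log2 fold change of 0.26. The smallest p belonged to Fabp3, which binds fatty acids, Fbp2, the muscle fructose bisphosphatase, Phkg1, the kinase subunit that activates Pygm, and Cox7a1, a muscle subunit of cytochrome oxidase. Phkg1 had 3.99, 4.21, 7.44 and 11.8 FPKM in propionic acid skin and 2.52, 2.34, 1.78 and 1.75 FPKM in control skin, with no overlap (log2 fold change 1.24, limma adjusted p = 0.392). Fbp2 had 22.1 ± 11.8 FPKM in propionic acid skin and 3.06 ± 1.11 FPKM in control skin, and Cox7a1 25.3 ± 6.64 FPKM in propionic acid skin and 12.3 ± 5.72 FPKM in control skin (SD, n = 4 each). Fabp3 had 198, 73.4, 62.9 and 52.7 FPKM in propionic acid skin and 8.57, 14.8, 14.0 and 16.8 FPKM in control skin, without overlap (limma adjusted p = 0.0998). These genes were picked by p. Of the 25, 4 had separate groups with higher values (16.0%, against 2.06% of all genes tested) and 0 with lower values (1.1% of all genes tested). Of the 17 further calcium genes, 0 had an unadjusted p under 0.05, and the smallest was that of Jph2, a junctophilin best known from the heart (0.0555 in limma), followed by Scn4a, the muscle sodium channel, Stac3, which couples the voltage sensor to release, and Cacna2d1, a further voltage sensor subunit (largest of the 4: 0.204 in limma). The difference between the lists was not tested.

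Of 43 tested sarcomere genes that are not members, 8 had higher and 3 lower values at an unadjusted p under 0.05 (4.07% and 2.21% of all genes tested), and 0 passed. Those with the smallest p were Actn3, Myh4 and Mybpc2 of the fast fibre and Ankrd23, a stretch-linked ankyrin repeat protein. All were higher with groups that did not overlap, but they were picked by p from these same values. Of the 43, 5 had separate groups with higher values (11.6%, against 2.06% of all genes tested). Separate groups with lower values were found for 1 of the 43 (1.1% of all genes tested). Actn3, the actinin of the fastest fibres, had 157 ± 58.9 FPKM in propionic acid skin and 39.5 ± 10.1 FPKM in control skin, and Mybpc2, fast myosin-binding protein C, 66.7 ± 18.9 FPKM in propionic acid skin and 16.7 ± 6.08 FPKM in control skin (limma adjusted p = 0.0998 for both, and for Myh4). Ankrd23 had 42.8 ± 6.59 FPKM in propionic acid skin and 24.3 ± 3.61 FPKM in control skin (SD, n = 4 each, limma adjusted p = 0.215). The myosins that give the fibre types their names differed in direction: Myh1 had 266, 56.8, 137 and 98.8 FPKM in propionic acid skin and 384, 312, 385 and 587 FPKM in control skin, and Myh4 121, 218, 175 and 377 FPKM in propionic acid skin and 9.37, 24.7, 50.1 and 14.5 FPKM in control skin. Every propionic acid mouse was below every control mouse for Myh1 (log2 fold change -1.75, limma adjusted p = 0.392) and above for Myh4. Neither gene passed the threshold, and Myh2 overlapped (log2 fold change -0.53). Actn2, the Z-disc actinin of all fibres, had 63.3, 22.2, 38.2 and 38.6 FPKM in propionic acid skin and 76.1, 48.2, 65.6 and 61.9 FPKM in control skin (log2 fold change -0.69, limma adjusted p = 0.77).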

How the data were processed

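The authors deposited 1 table of FPKM values for 25378 genes in 8 libraries made from total RNA. Per the submitters' processing notes, HISAT2 2.1.0, CASAVA and cutadapt were used on build mm10. The annotation, the strand setting and the read counter were not given in the sources used here. Every column belonged to 1 of the 8 samples. Within a gene the values stood in whole-number steps, so whole reads were recovered for 100.0% of genes (tolerance 0.01 read), 39034193 to 40194111 per library. A floor of 1 FPKM in at least 4 libraries left 12598 genes to test.

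The test was limma 3.58.1 (R 4.3.3) on log2(FPKM + 1), 2-sided, with an intensity trend, robust moderation and no term but group, and with Benjamini-Hochberg adjustment over all genes tested and a threshold of 0.05. Fold changes on this scale understate low genes. The procedure was also run on simulated data in which each gene was drawn independently of the others. Such data lack variation shared between genes, so they do not show how many changes would be missed here. Values by mouse are given for members with an unadjusted p under 0.05, for fast and slow pairs and for the most abundant member of each role; further pathway genes are the 4 with the smallest p per list, and the myosins Myh1, Myh2, Myh4 and Myh7.

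The members, gene lists and tests were chosen with earlier results of these data known. Some listed genes are on more than 1 list. Gene positions come from GENCODE vM21 and promoter windows from RefSeq on GRCm38.p6. Alternatives were a pseudocount of 0.1, no low-value filter, 2 other scalings, voom on recovered reads, library weights, a replicate block, a muscle content covariate and leaving out each mouse.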

Additional observations from a re-analysis of the deposited data

Results flagged for a closer look

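A single mouse stood far from the other 3 of its group in 3 of the 68 groups of 4 values examined, where chance gives about 1 in 20. Ttn, titin, was at 2.40 FPKM in propionic acid replicate 3, and the other propionic acid mice were at 1.29 to 1.44 FPKM. Ldb3, the Z-disc scaffold, was at 11.2 FPKM in propionic acid replicate 2, and the other propionic acid mice were at 19.7 to 20.9 FPKM. Sln, sarcolipin, was at 3.98 FPKM in control replicate 4, and the other control mice were at 21.6 to 23.0 FPKM. Each of the 3 mice stood apart for 1 of these members.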

How the results depend on the processing

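No member passed the threshold under any of the 16 alternatives (lowest limma adjusted p 0.131), and 504 of 544 member fold changes kept their direction. All 40 reversals fell on 14 members, none of them an energy gene, Pvalb, Atp2a1 or Myoz2. The cause was not tested for any change given here. With library weights, 1 gene of all passed, 1916 genes had an unadjusted p under 0.05, 12 members were higher and 0 lower at that level, and reversals gave 0.11 for Acta1, 0.052 for Des, 0.065 for Cacng1, -0.040 for Casq2 and -0.001 for Cmya5 (log2). Without the filter, 1351 genes had an unadjusted p under 0.05. With the muscle content covariate, 2 members were lower at that level, and reversals were -0.014 (Tnnt3), -0.15 (Tpm2), -0.011 (Mylpf), -0.30 (Tcap), -0.052 (Myot), -0.13 (Casq1), -0.032 (Cacna1s) and -0.10 (Sln). Quantile normalization reversed Tcap, to -0.029. Adding 0.1 in place of 1 moved the Mylpf to Myl2 difference to -1.13.

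With each mouse left out, 0 to 2 genes passed, namely 2 without control replicate 3 and 1 without control replicate 2. Those with an unadjusted p under 0.05 numbered 442 (without control replicate 3) to 1238 (without control replicate 2), with 524 when propionic acid replicate 1 was left out. Lower members at that level numbered 0 to 2. Fold changes that reversed ranged from -0.36 to 0.031 for Acta1, -0.003 to 0.44 for Tnnt3, -0.11 to 0.31 for Tpm2, -0.064 to 0.38 for Mylpf, -0.29 to 0.40 for Tcap and -0.034 to 0.30 for Myot. They ranged from -0.067 to 0.32 for Cmya5, -0.25 to 0.34 for Casq1, -0.13 to 0.20 for Casq2, -0.038 to 0.25 for Ryr1, -0.042 to 0.16 for Cacna1s and -0.39 to 0.66 for Sln.

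The labels do not say whether the replicate numbers pair the mice. Deviations of same-numbered mice correlated at -0.319, -0.081, 0.2 and -0.117. These lay inside the range for mice with different numbers, -0.526 to 0.605. With so few mice, the correlations cannot decide whether the numbers mark pairs. With a replicate block, 431 genes were higher and 269 lower at an unadjusted p under 0.05, 7 members were higher and 1 lower, and 0 genes passed. The lowest read numbers in a library were those of the slow forms Tnnc1, Myl2, Myl3 and Tnnt1, followed by Sln with 81 in control skin. The limit that depth sets for the other members was not tested.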
